A study of Homo sapiens with 24 samples.

Results

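RNA from fraction 4 of a sucrose density gradient was compared between 293T cells that carried the D146N form of DIS3 and 293T cells that carried the wild-type form (WT). The comparison held 6 of the 24 libraries of the series, 3 per genotype. They were chosen by the genotype and the fraction number in their titles, which matched the column names of the deposited table. 293T is a human embryonic kidney line. In all 6 libraries the cell's own DIS3 had been knocked down with the hairpin DIS3-sh2, and either DIS3 WT or DIS3 D146N had been put back. The RNA is labelled cytoplasmic, was depleted of ribosomal RNA, and came from 3 biological replicates per group. Fractions 3, 7 and 8 of both genotypes make up the rest of the series. The labels name 1 hairpin, cells without the knockdown were not analysed here, and a gene count cannot separate the residual endogenous DIS3 transcript from the rescue. Nothing in the labels gives the end of the gradient at which the numbering of each genotype began. Every difference below is therefore a difference between these libraries, and the D146N form and an opposite numbering of the fractions cannot be told apart.

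The RNA exosome is a ring of proteins that degrades RNA from its 3' end, and DIS3 is its catalytic subunit. DIS3 holds an exonuclease and, in its PIN domain, an endonuclease; D146N replaces an aspartate of the endonuclease centre. The exosome trims and removes small nuclear, small nucleolar and other noncoding RNAs as well as messenger RNAs. A sucrose gradient sorts particles by size and density, so that small RNA and protein complexes lie near the top and ribosomes and messenger RNAs bearing many ribosomes lie deeper. The RNA read in a fraction is therefore the part of each gene's RNA that sat in particles of that size.

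Library totals were 28.1, 23.8 and 26.4 M counts in D146N and 22.2, 21.2 and 22.01 M in WT. The 10 rows with the most counts took 76.6% to 77.6% of a D146N library and 51.7% to 52.2% of a WT library. The counts left for protein coding genes other than ribosomal protein and histone genes were 1.57, 1.26 and 1.48 M in D146N and 6.72, 6.36 and 6.59 M in WT, so that differences in these genes rested on fewer reads in D146N. Values below are on 2 scales. Counts scaled to the library total (CPM) are shares of a library. Log2 fold changes are from edgeR after TMM scaling, which sets the typical gene to 0. The TMM factors were 0.371, 0.355 and 0.372 in D146N and 2.53, 2.51 and 2.50 in WT, and leaving them out moved the median log2 fold change of all genes from -0.09 to -2.85. A gene can thus hold a smaller share of the D146N libraries and still be higher than the typical gene. No measure of the amount of RNA per fraction was used here, so neither scale gives amounts.

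DIS3 itself (ENSG00000083520.15, hg38 chromosome 13, 72752169 to 72781900) was read in all 6 libraries. It stood at 8.47, 9.45 and 9.45 CPM in D146N and 96.0, 94.9 and 94.5 CPM in WT. The groups did not overlap, and the mean WT share was 10.4 times the D146N share. Relative to the typical gene the difference was smaller (log2 fold change -0.60, SE 0.11, adjusted p 2.93e-05 by edgeR's quasi-likelihood test with Benjamini-Hochberg adjustment). Both genotypes were knocked down and rescued, so these values check the presence of a DIS3 transcript and not the mutation.

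Of 18907 genes tested, 9163 (48.5%) had an adjusted p under 0.05, which is what "passed" means below. They were 4851 higher in D146N (25.7%) and 4312 lower (22.8%). At least a 2-fold difference was seen for 3803 higher genes (20.1%) and 985 lower genes (5.21%). On library totals 16650 genes passed (88.1%) and the split turned to 714 higher (3.78%) and 15936 lower (84.3%). Genes that passed as higher and whose 3 D146N libraries also lay above all 3 WT libraries in CPM numbered 805 (4.26%), and the lower counterpart numbered 4311 (22.8%). Genes higher under both scalings are marked as such below. Leaving out the TMM factors shifted the median of all genes by -2.76. A gene lower after TMM was thus almost always lower on library totals, which is no separate check of it. Only the higher genes are put to a further check by the second scale. List counts below stand against these shares of all genes, 25.7% higher and 22.8% lower, or 3.78% and 84.3% on library totals.

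The D146N libraries were filled by a few noncoding RNAs. RNase P RNA, which trims the 5' end of transfer RNA precursors, took 28.0%, 27.9% and 28.6% of D146N counts and 1.16%, 1.16% and 1.14% of WT counts. 7SK RNA, which holds back the elongation factor P-TEFb, took 14.1%, 14.3% and 14.16% against 3.93%, 3.84% and 3.92%. RNase MRP RNA, which processes ribosomal RNA precursors, took 3.24%, 3.80% and 4.03% against 1.46%, 1.37% and 1.40%. Each of these RNAs held a larger share in every D146N library than in any WT library. 7SL RNA, the backbone of the signal recognition particle, went the other way with 32.99%, 33.5% and 31.5% in D146N and 42.5%, 42.7% and 42.7% in WT. Ribosomal protein mRNAs took 9.40% ± 0.301 of D146N counts and 4.48% ± 0.0351 of WT counts (SD, n = 3). Small nucleolar and Cajal body RNAs, which guide modification of ribosomal and spliceosomal RNA, took 0.582% ± 0.0245 in D146N and 6.30% ± 0.157 in WT. That class was unequal within: the Cajal body list took 0.283% against 2.93% and the box C/D list 0.0909% against 0.725%, but the box H/ACA list 0.0164% against 0.0129%. SCARNA2 enters the class in 2 nearly identical rows. RNase P RNA, RNase MRP RNA, 7SK RNA, RN7SL2 and SCARNA10 also enter their classes in 2 nearly identical rows each. Their class shares therefore exceed the CPM of the single rows given below. Whether a read was counted in both rows or divided between them is not given. Counting in both would also raise the library totals, unequally between the groups. The sign of values near 0 on library totals, such as that of RN7SL1 below, is therefore uncertain. Histone mRNAs took 0.832% ± 0.0162 against 2.298% ± 0.0396, and mitochondrially encoded RNAs 1.09% ± 0.0443 against 3.48% ± 0.0280. The remaining protein coding genes took 5.49% ± 0.172 of D146N counts and 30.1% ± 0.171 of WT counts. None of the 12 classes overlapped between the groups, and each had an exact two-sided permutation p of 0.1 (adjusted p 0.1), the smallest that 3 libraries against 3 can give.

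**Figure D1:**
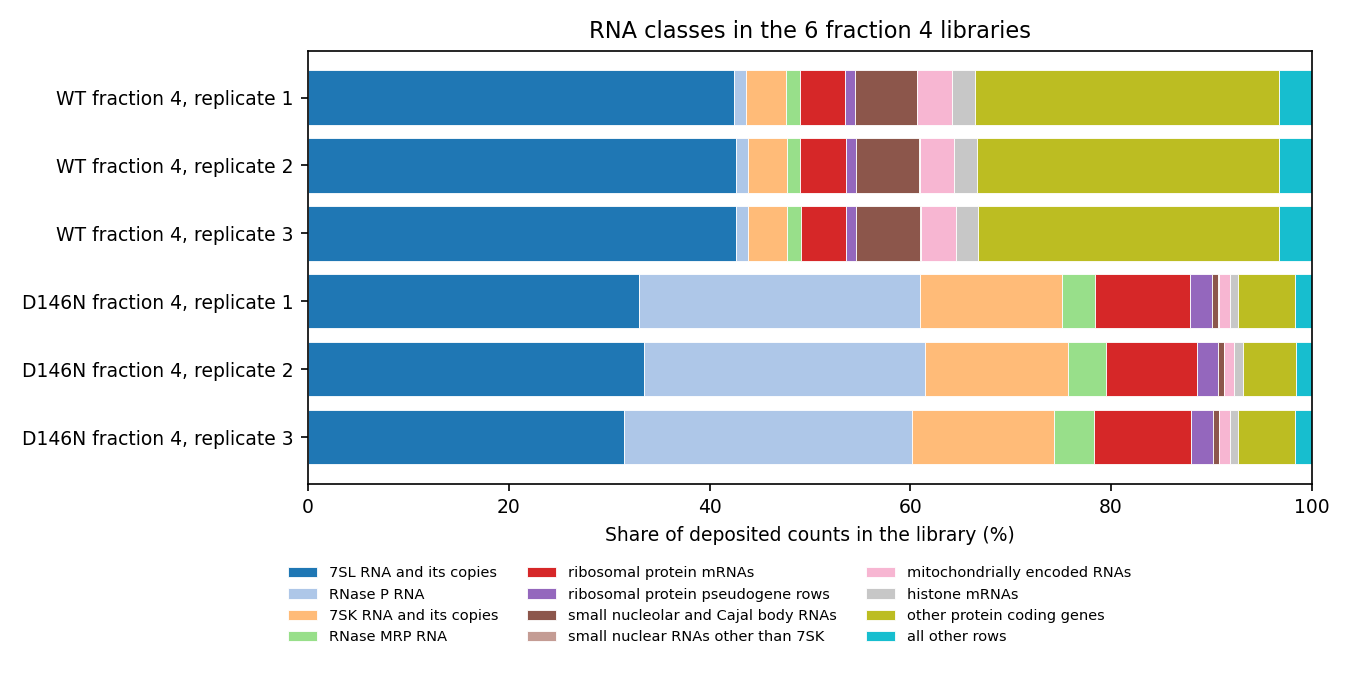
Share of deposited counts (%, x axis) taken by 12 RNA classes in each of the 3 WT and 3 D146N libraries of fraction 4 (bars, one per library, stacked to 100). RNase P RNA fills 27.9% to 28.6% of each D146N library and 1.14% to 1.16% of each WT library, while other protein coding genes fill 5.30% to 5.598% and 30.0% to 30.3%. The RNase P, RNase MRP and 7SK RNA classes each include 2 nearly identical rows of the same RNA.

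The class of small nuclear RNAs other than 7SK was 0.0239% ± 0.000799 of D146N counts and 0.0436% ± 0.00228 of WT counts. With the 7SL, 7SK, RNase P and MRP RNA rows left out of the total, ribosomal protein mRNAs were 44.2% ± 0.181 of what remained in D146N and 8.80% ± 0.0603 in WT. Ribosomal protein pseudogene rows, which can share reads with their parent genes, were 10.1% ± 0.151 against 1.93% ± 0.00858. The other protein coding genes were 25.9% ± 0.0325 against 59.1% ± 0.283. Small nucleolar and Cajal body RNAs were 2.74% ± 0.0304 against 12.4% ± 0.319 on this total. The small nuclear RNA class and the class of all other rows changed direction on it: small nuclear RNAs were 0.113% ± 0.00427 in D146N and 0.0855% ± 0.00454 in WT, and all other rows 7.88% ± 0.0555 and 6.36% ± 0.0206.

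RNase P and its relative RNase MRP are RNA enzymes that share most of their proteins. RPPH1, the RNA of RNase P (ENSG00000277209.1, chromosome 14, 20343071 to 20343411), stood at 140084, 139698 and 143181 CPM in D146N and 5819, 5802 and 5710 CPM in WT. The D146N libraries were 24.4-fold higher in mean CPM and the groups were far apart (log2 fold change 7.39, SE 0.18, adjusted p 8.21e-28). RMRP, the RNA of RNase MRP, stood at 16196, 19022 and 20138 CPM in D146N and 7309, 6851 and 6988 CPM in WT, again without overlap (log2 fold change 4.17, SE 0.13, adjusted p 3.85e-25). Both were higher on library totals too, with log2 fold changes of 4.61 and 1.39. Of the 13 RNase P and MRP genes tested, 7 were higher than the typical gene and 0 lower; the median log2 fold change was 1.05, against -0.09 for all genes. On library totals 2 were higher and 10 lower. Among the protein subunits, POP7 read 17.9, 18.3 and 17.3 CPM in D146N and 15.05, 15.3 and 17.0 CPM in WT (log2 fold change 2.96, SE 0.15, adjusted p 2.97e-15), the D146N libraries lying just above the WT libraries. RPP21 was higher than the typical gene (log2 fold change 1.996, SE 0.18, adjusted p 1.74e-11) but held a smaller share of the library, 3.82 ± 0.214 CPM (D146N) against 6.57 ± 1.11 CPM (WT) (SD, n = 3). POP1, the largest protein subunit, did not pass (log2 fold change -0.49, SE 0.25, adjusted p 0.106) at 0.787 ± 0.367 CPM (D146N) against 7.67 ± 0.747 CPM (WT).

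Among the remaining abundant noncoding RNAs, RN7SK was the one with a larger share in D146N. It read 70537, 71270 and 70728 CPM in D146N and 19623, 19182 and 19556 CPM in WT (log2 fold change 4.65, SE 0.17, adjusted p 3e-23). RN7SL1, a gene of 7SL RNA, read 185410, 185237 and 172869 CPM in D146N and 226573, 227794 and 225356 CPM in WT. Its share was lower in every D146N library, by a log2 value of -0.32 on library totals, while it was higher than the typical gene (log2 fold change 2.46, SE 0.14, adjusted p 3.2e-17). RN7SL2 did the same (2.34 after TMM and -0.44 on library totals). RNY1 and RNY3, Y RNAs that bind the Ro60 protein, were lower than the typical gene. RNY1 read 1.01, 1.89 and 0.757 CPM in D146N and 13.9, 13.7 and 16.9 CPM in WT (log2 fold change -0.85, SE 0.24, adjusted p 0.00326), and RNY3 was lower as well (log2 fold change -0.61, SE 0.25, adjusted p 0.0406). Vault RNAs, components of the large vault particle, differed among themselves. VTRNA1-3 read 17.0, 16.02 and 16.2 CPM in D146N and 134, 122 and 119 CPM in WT and did not pass (log2 fold change -0.15, SE 0.13, adjusted p 0.366), whereas VTRNA1-1 was higher than the typical gene (log2 fold change 2.21, SE 0.32, adjusted p 5.15e-07) with 1.48 ± 0.267 CPM (D146N) against 2.20 ± 0.433 CPM (WT) and overlapping groups, a sign that turned to -0.56 on library totals. In all, 4 of the 9 tested genes of this list were higher and 2 lower, with a median of 0.28; on library totals 1 was higher and 7 lower, with a median of -2.49.

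**Figure D2:**
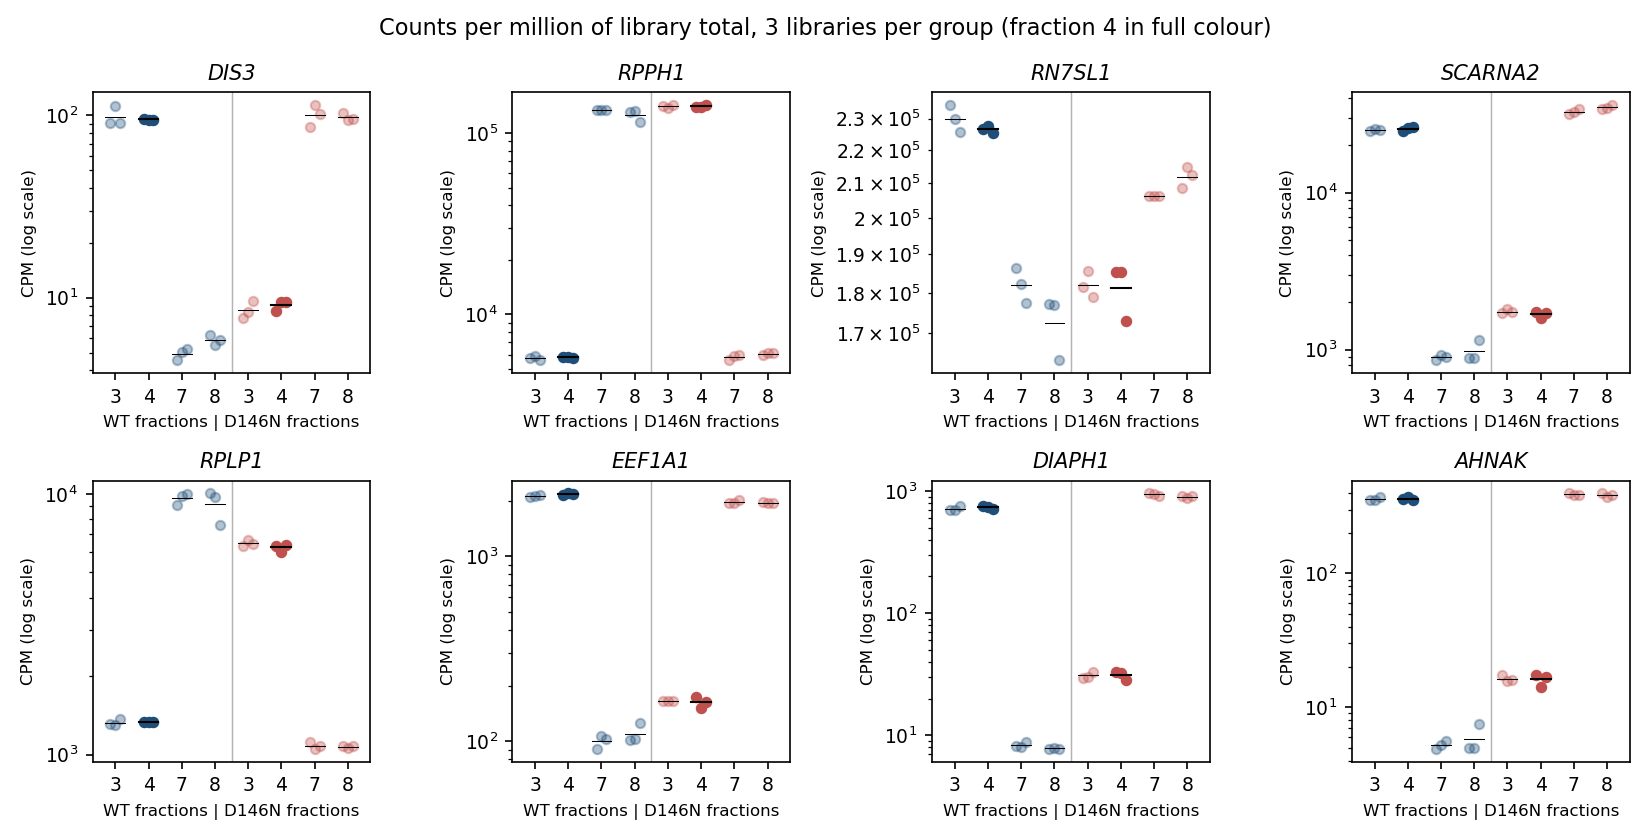
CPM of 8 genes (y axes, log scale) in WT and D146N fractions 3, 4, 7 and 8 (x axis); each point is 1 of 3 libraries, the bars are means and fraction 4 is in full colour. In fraction 4 RPPH1 lies at 139698 CPM or more in D146N and at 5819 or less in WT, and DIAPH1 at 33.3 or less and at 715 or more; the fraction 3 libraries of each genotype lie beside those of fraction 4.

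Small nucleolar RNAs split by gene. SNORD3A, the U3 RNA needed for cleavage of the ribosomal RNA precursor, read 6471, 6401 and 6804 CPM in WT and 709, 636 and 709 CPM in D146N (log2 fold change -0.48, SE 0.1, adjusted p 0.000194), without overlap. It was the only one of the 84 tested box C/D RNAs, which guide methylation, to pass as lower; 46 were higher than the typical gene and the median was 1.58. Of the 75 tested box H/ACA RNAs, which guide pseudouridylation, 54 were higher and 0 lower, with a median of 2.56. The box C/D and H/ACA lists held 296 and 152 rows, so many rows were not tested. Where counts in D146N are few, a call as lower is hard to reach. SNORA73B read 42.8, 36.5 and 47.96 CPM in D146N and 14.9, 11.4 and 13.4 CPM in WT (log2 fold change 4.46, SE 0.12, adjusted p 1.08e-26) and SNORA74A 8.09, 8.72 and 11.3 CPM in D146N and 2.21, 3.55 and 3.73 CPM in WT (log2 fold change 4.35, SE 0.17, adjusted p 1.62e-21), both higher on either scale. On library totals the medians of the C/D and H/ACA lists were -1.18 and -0.19, with 8 against 42 and 18 against 18 genes higher and lower. SNORD3B-1, SNORD3B-2 and SNORD3C are other U3 genes that can share reads with SNORD3A, and their log2 fold changes were 0.95, 1.57 and 0.085 (adjusted p 3.87e-10, 2.36e-16 and 0.523), so the value of a single U3 row is uncertain. On library totals all 4 U3 rows were below 0 (-3.26, -1.83, -1.21 and -2.69). Many small nucleolar RNAs lie inside introns of host genes, and intronic and mature reads of a row cannot be separated in a gene count.

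Cajal body RNAs guide the modification of spliceosomal RNAs. SCARNA2 read 24617, 25717 and 25977 CPM in WT and 1733, 1593 and 1700 CPM in D146N (log2 fold change -1.14, SE 0.098, adjusted p 3.07e-12). SCARNA9 and SCARNA17 were lower as well, with log2 fold changes of -0.90 (adjusted p 7.21e-11) and -0.93 (adjusted p 3.66e-10). These 3 held 15.2, 12.8 and 13.1 times the CPM in WT that they held in D146N. SCARNA16 went the other way with 22.4, 22.8 and 21.4 CPM in D146N and 0.909, 0.898 and 1.24 CPM in WT (log2 fold change 7.23, SE 0.27, adjusted p 4.61e-15). MIR6516, a microRNA gene that overlaps SCARNA16, had nearly the same values, 22.1 ± 0.758 CPM (D146N) against 0.991 ± 0.221 CPM (WT) (SD, n = 3), and is not separate evidence. SCARNA7 was also higher in every D146N library, at 447, 410 and 431 CPM in D146N and 380, 363 and 372 CPM in WT (log2 fold change 2.99, SE 0.1, adjusted p 6.49e-24). Over the list, 11 of 15 tested genes were higher than the typical gene and 3 lower (median 1.21), whereas on library totals 2 were higher and 9 lower (median -1.57). Of 39 tested spliceosomal small nuclear RNA genes 31 were higher and 1 lower, RNU6-7, a U6 gene (log2 fold change -0.72, SE 0.15, adjusted p 0.000159); their median was 2.53, and -0.24 on library totals. Copies of such genes can share reads, so these rows may not be independent.

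Ribosomal protein mRNAs were the coding class with a higher share in D146N. Of 47 tested large subunit genes 44 were higher than the typical gene and 2 lower, with a list median of 3.69, and all 32 tested small subunit genes were higher, with a median of 3.77. They stayed above 0 on library totals, with medians of 0.91 and 0.99 and with 37 and 28 genes higher against 3 and 0 lower. RPLP1, a stalk protein of the large subunit, read 6343, 6007 and 6354 CPM in D146N and 1335, 1331 and 1339 CPM in WT (log2 fold change 5.005, SE 0.16, adjusted p 1.82e-24). RPL12, at the base of that stalk, read 4912, 4590 and 4918 CPM in D146N and 920, 941 and 908 CPM in WT (log2 fold change 5.16, SE 0.13, adjusted p 2.28e-27). RPS2, RPS19 and RPS23 of the small subunit had mean CPM ratios of 2.80, 2.56 and 2.48 in D146N over WT, all without overlap. RPL37A was 1.51-fold higher in CPM (log2 fold change 3.37), and RPL8 was 1.17-fold higher with a log2 fold change of 3.01, though it did not pass on library totals. The 2 exceptions were RPL3 and RPL4. RPL3, near the peptidyl transferase centre, read 664, 673 and 640 CPM in WT and 78.1, 69.5 and 73.6 CPM in D146N (log2 fold change -0.38, SE 0.094, adjusted p 0.00101), and RPL4 read 823, 819 and 817 CPM in WT and 65.3, 59.8 and 64.5 CPM in D146N (log2 fold change -0.92, SE 0.096, adjusted p 3.88e-10). Both lay far below WT in CPM in every D146N library.

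Ribosomal protein and several translation factor mRNAs belong to the TOP class, whose 5' end starts with a C and a run of pyrimidines and whose translation is switched through that run. The first 20 bases at the RefSeq start (GRCh38.p14) are shown for members that were higher, for members that were lower and for 2 long mRNAs that were lower, to set the ends beside the differences. Capitals mark the unbroken run of C and T from the first base.
RPLP1: CCCCTTTCCTCagctgccgc
RPL12: CCTCTCggctttcggctcgg
RPS23: CTCTTTCgctcaggcccgtg
TPT1: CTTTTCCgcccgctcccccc
RPL3: CTCTaccggcgggatttgat
EEF2: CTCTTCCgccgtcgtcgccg
EEF1A1: CTTTTTCgcaacgggtttgc
DIAPH1: Taaagagcgactgggcggcg
AHNAK: agagcctggcccggcgccag
These starts lie at chr15:69452818-69452837, plus strand; chr9:127451387-127451406, minus strand; chr5:82278335-82278354, minus strand; chr13:45341164-45341183, minus strand; chr22:39319604-39319623, minus strand; chr19:3985444-3985463, minus strand; chr6:73521013-73521032, minus strand; chr5:141618981-141619000, minus strand; and chr11:62545807-62545826, minus strand. The run was 11 bases long in RPLP1, 7 in TPT1 and also 7 in EEF2 and 7 in EEF1A1. A start with C and a run of at least 5 pyrimidines, searched on the gene's strand at the first base only, was found in 1429 of 35116 RefSeq starts (4.07%). It was found in 28 of 38 large subunit genes with a start in the table, 19 of 25 small subunit genes and 12 of 13 other TOP genes, against 1 of 25 scaffold and 2 of 25 other very long mRNAs. A match describes these letters only.

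The list of translation factor and other TOP mRNAs, which includes RACK1 of the ribosome, went both ways. Of 18 tested genes 6 were higher than the typical gene, 7 lower and 5 did not pass, with a median of -0.04. TPT1, the translationally controlled tumour protein, read 1011, 946 and 1029 CPM in D146N and 584, 580 and 538 CPM in WT (log2 fold change 3.59, SE 0.13, adjusted p 1.04e-22), and BTF3, a factor that binds nascent chains, read 271, 254 and 273 CPM in D146N and 164, 162 and 161 CPM in WT (log2 fold change 3.49, SE 0.096, adjusted p 1.65e-26). Both were higher in every D146N library. EEF1A1 and EEF2, the elongation factors that bring transfer RNA to the ribosome and move it along, were lower. EEF1A1 read 2156, 2192 and 2162 CPM in WT and 173, 151 and 163 CPM in D146N (log2 fold change -0.96, SE 0.088, adjusted p 1.71e-11), and EEF2 read 752, 729 and 724 CPM in WT and 58.9, 56.4 and 61.2 CPM in D146N (log2 fold change -0.86, SE 0.085, adjusted p 8.43e-11). The WT libraries were 13.4 and 12.5 times higher in mean CPM, and both genes start with a pyrimidine run as long as that of TPT1. RACK1, a protein of the small subunit's head, was one of the 4 genes with the highest CPM among those that did not pass (log2 fold change 0.87, SE 0.47, adjusted p 0.138). It read 351, 331 and 336 CPM in D146N and 1293, 1269 and 1268 CPM in WT, and its sign turned to -1.91 on library totals. The SE of RACK1 came from a fit to all 24 libraries, while its 3 libraries of each group here lay close together. Not passing therefore does not show that RACK1 varied or stayed equal within fraction 4.

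Some genes carry small nucleolar RNAs in their introns, and several of these hosts make noncoding transcripts with TOP ends. Of 20 tested, 18 were higher than the typical gene and 1 lower, with a median of 2.58 (-0.20 on library totals, with 9 higher and 7 lower). GAS5 read 1102, 1023 and 1116 CPM in D146N and 610, 617 and 602 CPM in WT (log2 fold change 3.61, SE 0.097, adjusted p 1e-26). ZFAS1 and SNHG5 had log2 fold changes of 4.26 and 4.25 and mean CPM 2.79 and 2.78 times those of WT. CCAR1, a coding host, was the lower one (log2 fold change -0.45, SE 0.091, adjusted p 9.16e-05).

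**Figure D3:**
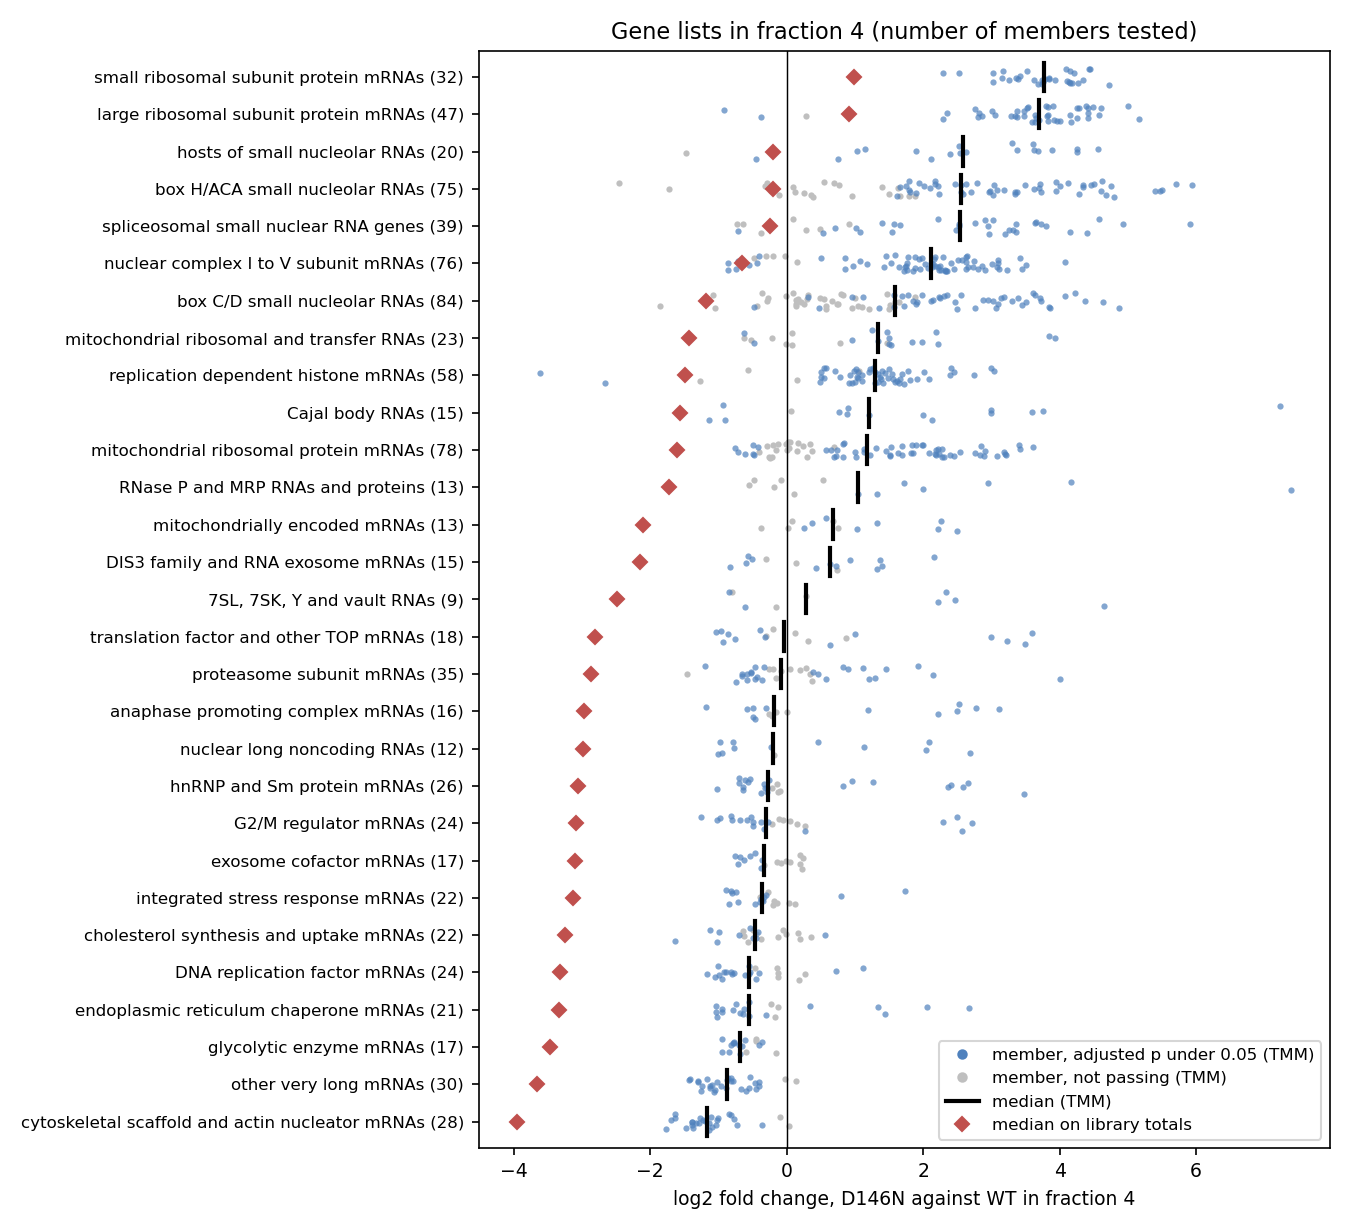
Log2 fold change, D146N against WT in fraction 4 (x axis), of each tested member (points) of 29 gene lists (y axis, number of members tested in brackets), with the list median after TMM (black bars) and on library totals (red diamonds). The ribosomal protein lists have medians of 3.69 and 3.77 and stay above 0 on library totals (0.91 and 0.99), and the scaffold list has a median of -1.17.

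Nuclear genes of the respiratory chain and ATP synthase (complexes I to V) were mostly higher than the typical gene. Of 76 tested, 64 were higher and 7 lower, with a median of 2.12, but on library totals 10 were higher and 55 lower, with a median of -0.66. ATP5F1E, the epsilon subunit of ATP synthase, read 168, 161 and 170 CPM in D146N and 101, 99.6 and 102 CPM in WT (log2 fold change 3.502, SE 0.18, adjusted p 2.83e-15), and UQCRH, a hinge protein of complex III, 149, 135 and 148 CPM in D146N and 112, 118 and 116 CPM in WT (log2 fold change 3.10, SE 0.11, adjusted p 8.75e-23). Both were higher on either scale. The catalytic core subunits of ATP synthase were lower than the typical gene. ATP5F1A read 111, 120 and 124 CPM in WT and 9.07, 9.73 and 9.66 CPM in D146N (log2 fold change -0.86, SE 0.089, adjusted p 2.69e-10), and ATP5F1B had a log2 fold change of -0.86 (adjusted p 1.49e-10). Mitochondrial ribosomal protein mRNAs were higher for 51 of 78 and lower for 7, with a median of 1.18 (-1.60 on library totals). MRPL33 was among the higher ones (log2 fold change 3.19, SE 0.17, adjusted p 1.34e-13) and MRPS2 among the lower ones (log2 fold change -0.76, SE 0.15, adjusted p 7.01e-05).

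RNAs made inside mitochondria held smaller shares of the D146N libraries, but mostly stood above the typical gene. Of the 13 mitochondrial mRNAs 8 were higher after TMM and 0 lower (median 0.68), and on library totals 0 were higher and 12 lower (median -2.10). MT-CO1, a subunit of cytochrome c oxidase, read 11417, 11431 and 11421 CPM in WT and 2051, 1884 and 2003 CPM in D146N, a share 5.77 times higher in WT, and its log2 fold change was 0.25 after TMM (adjusted p 0.024) and -2.53 on library totals. MT-CO2 and MT-CO3 had log2 fold changes of 2.49 and 2.21 after TMM and -0.29 and -0.57 on library totals. MT-ND1, MT-ND5 and MT-CYB, subunits of complexes I and III, did not pass, with adjusted p of 0.0535, 0.588 and 0.875 and log2 fold changes of 0.75, 0.076 and 0.025. On library totals these were -2.03, -2.70 and -2.76. Of the 23 tested mitochondrial ribosomal and transfer RNAs 13 were higher and 2 lower (median 1.34, and -1.44 on library totals).

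Replication dependent histone mRNAs end in a stem loop and not in a poly(A) tail. Of 58 tested, 52 were higher than the typical gene and 2 lower, with a median of 1.30, while on library totals 0 were higher and 54 lower, with a median of -1.48. H1-2, a linker histone, read 1224, 1201 and 1186 CPM in WT and 583, 557 and 559 CPM in D146N (log2 fold change 1.69, SE 0.092, adjusted p 9.31e-18), and H4C14, a core histone, read 2177, 2222 and 2161 CPM in WT and 523, 503 and 528 CPM in D146N (log2 fold change 0.70, SE 0.13, adjusted p 2.29e-05). H3C3, 1 of the 2 that were lower, read 0.496, 1.32 and 1.68 CPM in WT and 0.0355, 0 and 0 CPM in D146N; as the D146N libraries held 1 count of it in all, no fold change is given. The WT libraries held the larger share of all 3, and the sign of H1-2 and H4C14 depends on the scale: H1-2 was -1.09 and H4C14 -2.08 on library totals.

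Messenger RNAs of large cytoskeletal scaffold and actin nucleating proteins were mostly lower in D146N than the typical gene. Of 28 tested, 26 were lower than the typical gene and 0 higher, with a median of -1.17. All 28 were lower on library totals (median -3.95), as were 84.3% of all genes, which is no separate check. DIAPH1, a formin that nucleates actin filaments, read 755, 738 and 715 CPM in WT and 33.3, 32.3 and 28.5 CPM in D146N (log2 fold change -1.77, SE 0.1, adjusted p 3.2e-17). AKAP12, an anchor of protein kinase A, read 2286, 2255 and 2262 CPM in WT and 108, 99.6 and 110 CPM in D146N (log2 fold change -1.64, SE 0.13, adjusted p 4.21e-13). The WT libraries were 23.5 and 21.5 times higher in mean CPM, with no overlap. SPECC1 and MACF1, the latter a linker of actin and microtubules, had log2 fold changes of -1.63 (SE 0.083) and -1.47 (SE 0.092). A list of other very long mRNAs gave 28 of 30 lower and 0 higher, with a median of -0.88 (-3.66 on library totals). This list was drawn up with earlier results of these data known and not from measured lengths, so it is no separate check on length. It held PRKDC, the DNA-dependent protein kinase, at 1421, 1412 and 1382 CPM in WT and 94.3, 89.1 and 96.5 CPM in D146N (log2 fold change -1.13, SE 0.099, adjusted p 5e-12). CENPF, a kinetochore protein (-1.44), DYNC1H1, the heavy chain of dynein (-1.30), and HUWE1, a ubiquitin ligase (-0.82), were lower too.

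**Figure D4:**
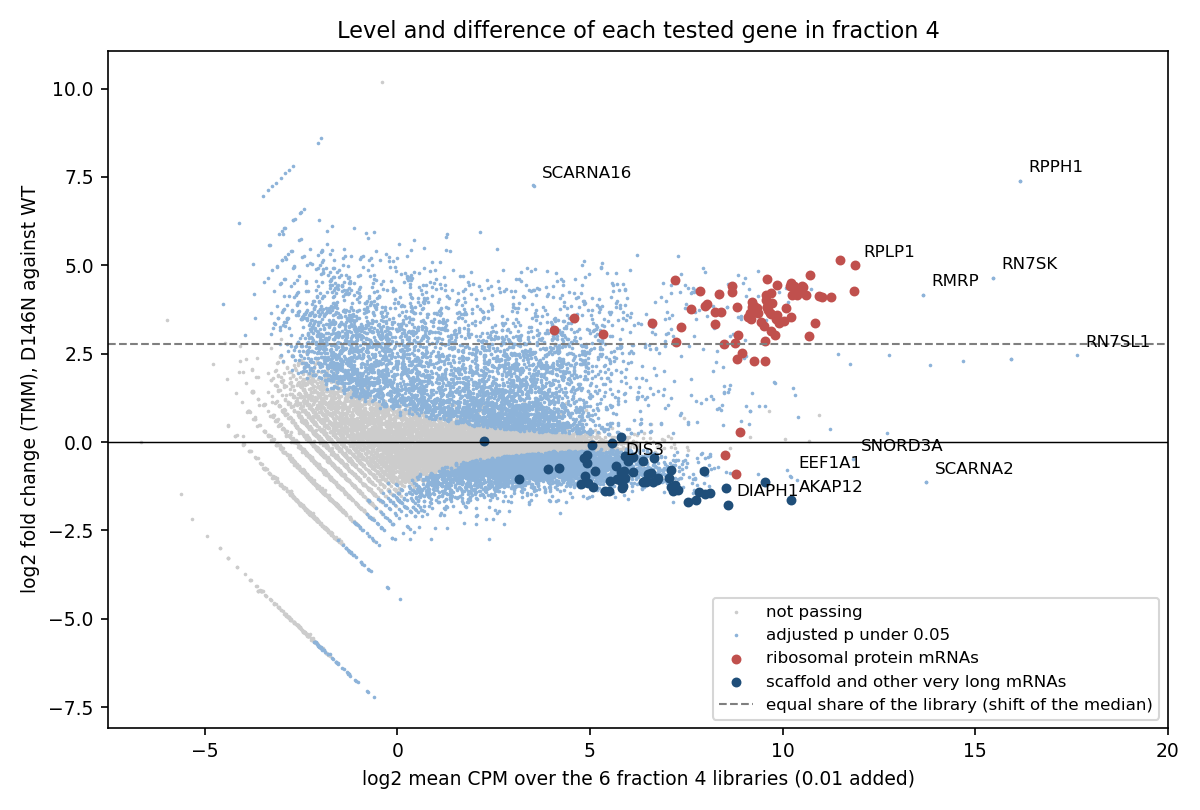
Log2 fold change after TMM (y axis) against log2 mean CPM over the 6 libraries (x axis) for each of the 18907 tested genes; blue points passed, and the dashed line marks the height at which a gene held an equal share of both libraries (2.76, the shift of the median between scalings). Most ribosomal protein mRNAs (red) lie above that line, RPLP1 at 5.005, and scaffold and very long mRNAs (dark blue) lie mostly below 0, DIAPH1 at -1.77.

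Of 24 DNA replication factor mRNAs 16 were lower and 2 higher (median -0.55). MCM7 and MCM4, subunits of the replicative helicase, had log2 fold changes of -0.89 and -0.41, and RRM1, the large subunit of ribonucleotide reductase, -0.999 (adjusted p 4.33e-11). GINS2 was higher than the typical gene (log2 fold change 1.12, SE 0.3, adjusted p 0.00451) but -1.66 on library totals. Of 24 G2/M regulator mRNAs 13 were lower and 5 higher (median -0.30), against 22.8% and 25.7% of all genes. MKI67, the source of the Ki-67 proliferation antigen, read 258, 254 and 264 CPM in WT and 15.3, 16.4 and 15.6 CPM in D146N (log2 fold change -1.26, SE 0.079, adjusted p 4.85e-16), and TOP2A, topoisomerase II alpha, had a log2 fold change of -1.02. PTTG1, securin, and CKS1B, a small subunit of cyclin-dependent kinases, were higher than the typical gene (2.57 and 2.72), but not on library totals (-0.21 and -0.062). Of 16 anaphase promoting complex mRNAs 6 were higher and 6 lower (median -0.19). ANAPC2, its cullin subunit, read 140, 132 and 147 CPM in WT and 7.97, 9.53 and 9.50 CPM in D146N (log2 fold change -1.18, SE 0.11, adjusted p 1.29e-11), and ANAPC11, its small RING subunit, read 25.6, 27.0 and 26.8 CPM in D146N and 18.7, 26.4 and 18.5 CPM in WT (log2 fold change 3.10, SE 0.15, adjusted p 2.12e-16), where the groups overlapped in CPM. Of 35 proteasome subunit mRNAs 12 were higher and 13 lower (median -0.08).

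Of the 15 tested genes of the DIS3 family and the exosome 8 were higher than the typical gene and 4 lower, with a median of 0.63. Over all genes 25.7% were higher and 22.8% lower, so the 4 lower genes are near that share. All 15 were lower on library totals, with a median of -2.15, against 84.3% of all genes. EXOSC1, a cap protein, and EXOSC8, a ring protein, were higher after TMM (2.16 and 1.40) and lower on library totals (-0.62 and -1.38). EXOSC9, another ring protein, read 56.2, 51.4 and 56.4 CPM in WT and 4.38, 4.57 and 4.47 CPM in D146N (log2 fold change -0.83, SE 0.1, adjusted p 2.01e-08), and EXOSC10, the nuclear exonuclease, had a log2 fold change of -0.51 (adjusted p 0.00094). Exosome cofactor mRNAs were lower for 8 of 17 and higher for 0 (median -0.34); the helicase MTREX had a log2 fold change of -0.46 (adjusted p 0.00877).

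Nuclear long noncoding RNAs were present in these libraries although the RNA is labelled cytoplasmic. MALAT1, which resides in nuclear speckles, read 2195, 2217 and 2243 CPM in WT and 165, 153 and 172 CPM in D146N (log2 fold change -0.98, SE 0.091, adjusted p 1.87e-11). NEAT1, the scaffold of paraspeckles, read 222, 228 and 238 CPM in WT and 19.0, 14.95 and 18.1 CPM in D146N (log2 fold change -0.95, SE 0.088, adjusted p 2.16e-11). Both held a larger share of every WT library. PVT1 was higher than the typical gene (log2 fold change 2.09, SE 0.1, adjusted p 8.2e-19), and -0.69 on library totals. Of 12 tested genes in the list 5 were higher and 6 lower, with a median of -0.21.

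Endoplasmic reticulum chaperone mRNAs encode folding and transport proteins of the secretory pathway. Of 21 tested, 13 were lower than the typical gene and 5 higher (median -0.56). Over all genes 22.8% were lower and 25.7% higher, so the 5 higher genes are near that share. HSPA5 (BiP) read 295, 287 and 287 CPM in WT and 21.1, 20.1 and 20.2 CPM in D146N (log2 fold change -1.04, SE 0.076, adjusted p 3.94e-14), and HSP90B1 had a log2 fold change of -1.02. SEC61B, a small subunit of the translocon, was among the higher ones (2.67, and -0.11 on library totals). Glycolytic enzyme mRNAs were lower for 13 of 17 and higher for 0 (median -0.68). ENO1 read 290, 285 and 300 CPM in WT and 23.96, 25.0 and 23.5 CPM in D146N (log2 fold change -0.81, SE 0.077, adjusted p 4.36e-11), PKM had a log2 fold change of -0.77, and GAPDH, at 92.0 ± 3.15 CPM (D146N) against 708 ± 13.0 CPM (WT) (SD, n = 3), did not pass (log2 fold change -0.16, SE 0.59, adjusted p 0.845). Integrated stress response mRNAs were lower for 13 of 22 and higher for 2 (median -0.36), with PHGDH, of serine synthesis, at -0.82 and DDIT3 (CHOP) at 1.73 after TMM and -1.05 on library totals. Cholesterol synthesis and uptake mRNAs were lower for 9 of 22 and higher for 1 (median -0.47). Of 26 hnRNP and Sm protein mRNAs 14 were lower and 8 higher (median -0.28). SNRPD2, a core Sm protein, read 153, 149 and 154 CPM in D146N and 93.1, 92.8 and 96.3 CPM in WT (log2 fold change 3.47, SE 0.16, adjusted p 1.82e-17), HNRNPU had a log2 fold change of -0.69, and HNRNPH1 did not pass (log2 fold change -0.13, SE 0.088, adjusted p 0.242).

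The label 293T was checked against marker genes. VIM, expressed by this line, read 227, 226 and 211 CPM in WT and 22.01, 19.7 and 23.2 CPM in D146N (log2 fold change -0.57, SE 0.086, adjusted p 7.91e-07). The 8 markers summed to 277 to 309 CPM in WT and 25.8 to 29.5 CPM in D146N, most of it VIM, with 5 lower than the typical gene and 0 higher. NEFM, NEFL and PAX2 stood at 0 to 0.15 CPM in D146N. In WT the liver marker ALB, given below, stood above each of the 8 but VIM. Among 16 markers of blood, endothelium, fibroblasts, liver and glia, PTPRC, CD3E and CDH5 were at 0 in all 6 libraries, and LYZ and PECAM1 in the D146N libraries. Of the 12 tested, 2 were higher than the typical gene and 4 lower. The sum of the 16 was 129 to 141 CPM in WT and 6.50 to 8.55 CPM in D146N, most of it ALB, at 122, 115 and 128 CPM in WT and 6.52, 4.57 and 6.12 CPM in D146N. In such libraries fewer cells of a type and less RNA per cell cannot be told apart, and the part of these markers in any other result was not tested.

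The largest differences that passed, did not overlap in CPM and had at least 10 CPM on average were drawn from 298 higher and 2485 lower genes. After RPPH1, SCARNA16 and the RPL12 gene with its pseudogene rows (RPL12P4 at 5.30, RPL12P16 at 5.27), the leading higher genes were coding genes. BBLN read 67.2, 67.3 and 62.1 CPM in D146N and 13.6, 14.5 and 12.6 CPM in WT (log2 fold change 5.06, SE 0.12, adjusted p 1.06e-27). KRT10, a keratin, had a log2 fold change of 5.01 (SE 0.24), NME2, a nucleoside diphosphate kinase, 4.93 (SE 0.13), and BOLA3, of iron-sulfur cluster assembly, 4.93 (SE 0.17). RPL21P28, a pseudogene row, had 4.94, and RPLP1, given above, completed the 12. On the lower side TTN, the giant muscle protein titin, led. TTN read 35.7, 35.8 and 37.4 CPM in WT and 1.46, 1.09 and 1.36 CPM in D146N (log2 fold change -2.01, SE 0.14, adjusted p 5.94e-15). FN1, fibronectin, read 280, 264 and 282 CPM in WT and 12.0, 12.1 and 12.9 CPM in D146N (log2 fold change -1.70, SE 0.18, adjusted p 9.99e-08), and AHNAK, a giant scaffold protein, 361, 369 and 351 CPM in WT and 17.6, 14.18 and 16.9 CPM in D146N (log2 fold change -1.69, SE 0.081, adjusted p 1.97e-19). The other lower genes beside DIAPH1 and AKAP12 were FNDC10 (-1.74), YBX1P1 (-1.70, a pseudogene row), TEN1 (-1.69), TSPAN17 (-1.68), COL5A2 (-1.67), AHNAK2 (-1.64) and FGB (-1.64). The D146N libraries held at most 2.24 CPM of each of these 7 and the WT libraries at least 19.1 CPM.

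Calls varied with the kind of gene. Of 13353 tested protein coding genes 19.4% were higher and 29.7% lower, and of 1398 long noncoding RNA genes 49.6% were higher and 4.08% lower. Of 162 small nucleolar RNA genes 63.0% were higher and 0.617% lower. Among protein coding genes with a genomic span under 5 kb 40.1% were higher and 14.3% lower (median 0.38), and among those of 20 to 50 kb 13.6% and 34.8% (median -0.30). Genes spanning 200 kb or more gave 23.04% and 23.7% (median -0.069), so the shares did not follow span in 1 direction. Span counts introns and is not the length of the mRNA. Genes under 1 CPM had a median of 3.30 counts in D146N and 11.7 in WT, and 26.4% were higher and 2.55% lower, whereas those of 10 to 100 CPM were 23.2% higher and 48.5% lower. With so few D146N counts a call as lower is hard to reach. The shares of kinds of gene that differ in level are therefore not directly comparable. How far level accounts for the differences between kinds was not tested.

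Fraction 3 was the comparison most like it, and no gene passed a test of the difference between the 2 fractions. This test, of the D146N against WT difference in fraction 4 minus that in fraction 3, called 0 of 18907 genes (0.0%) with edgeR (smallest adjusted p 0.791) and 0 with DESeq2 (smallest adjusted p 0.153), which does not show that the fractions were alike, and 850 and 894 genes had an unadjusted p under 0.05. Values for fractions 4 and 3 were 7.39 and 7.40 for RPPH1, 5.005 and 5.07 for RPLP1, -0.96 and -0.90 for EEF1A1, -1.77 and -1.75 for DIAPH1 and -0.60 and -0.74 for DIS3. In fraction 3, 9400 genes (49.7%) passed. Of these, 7735 also passed in fraction 4 in the same direction, 84.4% of the fraction 4 calls and 82.3% of the fraction 3 calls, and 0 passed in opposite directions. Within a genotype, fraction 4 against fraction 3 also called 0 genes (0.0%), in WT with 830 and in D146N with 765 unadjusted p under 0.05. Pairs of D146N libraries differed by more than sampling alone, which gives a chi-square per gene of about 1. The chi-square was 3.86 to 4.88 within D146N fraction 4 and 1.98 to 4.996 between D146N fractions 4 and 3. The lowest of the 9 D146N pairs between the fractions thus lay below all 3 pairs within D146N fraction 4. Pairs within D146N fraction 3 ran from 1.75 to 2.76, also below every pair within D146N fraction 4. WT did not show the same order. Its lowest pair between the fractions, 4.22, lay above the lowest within fraction 4, 4.01, and below the lowest within fraction 3, 5.02. The chi-square of repeat libraries of 1 sample can also exceed 1, so whether the D146N libraries were repeats was not tested. The D146N against WT difference in fraction 4 differed from that in fraction 7 for 12798 genes (67.7%) and from that in fraction 8 for 12930 genes (68.4%).

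Because the numbering of the fractions is not given, D146N fraction 4 was also set against WT fractions 7 and 8. These comparisons share the D146N libraries with the one above. Against WT fraction 7, 3308 genes passed (17.5%), 1931 higher (10.2%) and 1377 lower (7.28%). That split turned to 1509 higher and 1788 lower with RLE factors and 1542 and 1962 with DESeq2. At least 2-fold apart were 392 higher (2.07%) and 194 lower (1.03%). Against WT fraction 8, 3479 passed (18.4%), 2149 higher (11.4%) and 1330 lower (7.03%), and 414 (2.19%) and 193 (1.02%) of them were at least 2-fold apart. The split against fraction 8 turned to 1089 higher and 2479 lower on library totals, 1759 and 1807 with RLE factors, and 1839 and 2129 with DESeq2. The median absolute log2 fold change was 0.39 against WT fraction 7 and 0.41 against WT fraction 8, and 0.66 against WT fraction 4. One library stood apart there: WT fraction 8 replicate 3 had a TMM factor of 0.531, against 0.375 and 0.371 for the others of its group, and without it 3385 genes passed, 1893 higher and 1492 lower. Without D146N fraction 4 replicate 1, 2 or 3 the lower genes numbered 826, 748 and 837.

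RPPH1, with 134116 CPM in WT fraction 7 and 125758 CPM in its fraction 8, differed little from D146N fraction 4 in either (0.067 and 0.33, neither passing). RPL12 stood at 5623 CPM in WT fraction 7 and 5688 CPM in its fraction 8 and BBLN at 69.1 CPM in WT fraction 7 and 70.4 CPM in its fraction 8, again with no call. Other genes differed. SCARNA16, higher in D146N than in WT within fraction 4, was lower against these fractions (-2.42 and -2.15), with 119 CPM in WT fraction 7 and 110 CPM in its fraction 8 against 22.2 in D146N fraction 4. RMRP was lower too (-0.78 and -0.70). DIAPH1, CENPF and ANAPC2 were higher in D146N fraction 4, by 1.91, 2.25 and 2.84 against WT fraction 7 and 2.19, 2.41 and 3.01 against WT fraction 8. DIS3 was higher as well (0.88 and 0.83), with 4.93 CPM in WT fraction 7 and 5.88 CPM in its fraction 8, and so were RNY1 (2.71 and 3.36) and RNY3 (2.82 and 3.67). ALB was lower against WT fraction 8 (-0.99) and did not pass against WT fraction 7 (-0.35); KRT18, at 1.31 ± 0.255 CPM (D146N) against 22.2 ± 2.37 CPM (WT) within fraction 4, passed in neither (-0.065 and -0.75).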

How the data were processed

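Expected counts per gene, 61853 rows for 24 libraries, were deposited by the authors in 1 table; 73.3% of the values above 0 were whole within 0.005, and they were rounded before testing. Per the submitters' processing notes the tools were Bowtie2 2.3.5, HISAT2 2.1.0, SAMtools and featureCounts 1.5.1 with hg38; their settings, and whether strand was used, are not given in the sources used here. Symbols matched 99.9% of rows.

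D146N and WT fraction 4 were compared with edgeR 4.0.16 (R 4.3.3): TMM, filterByExpr, 8 group means over 24 libraries, robust quasi-likelihood test and Benjamini-Hochberg adjustment over 18907 genes, with a biological coefficient of variation of 13.8%. CPM use library totals, and class shares were tested with an exact permutation test. Alternatives were library totals, RLE factors, DESeq2 1.42.0, limma 3.58.1 voom, no filter, no rounding, rows or libraries left out and the replicate block.

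Members and lists were chosen with earlier results of these data known. Named genes were DIS3, the 12 largest changes each way with an adjusted p under 0.05, at least 10 CPM and no overlap in CPM, and per list the 4 highest in CPM, up to 2 opposed to the median and any member of a list of at most 15 genes, of which the text names some; the 4 highest genes that did not pass were added. Some named genes are not reported here. EEF1A1 and the other genes shown with 5' ends, the U3 copies, the small nuclear RNA list by name, the tests of the genotype difference in fraction 4 against fractions 7 and 8 and of fraction 4 against 3 within a genotype, and the summaries by level, kind and span were settled after the data were seen. 5' ends are RefSeq, GRCh38.p14. The design text calls the 3 replicates biological, and nothing further says how the cultures were separated, so p-values measure the spread between these libraries.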

Additional observations from a re-analysis of the deposited data

Results flagged for a closer look

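The difference between D146N and WT in fraction 4 was set against the same difference in fractions 7 and 8 of the gradient, and most genes differed between fractions by a test of the difference itself. Against fraction 7, 12798 genes passed (67.7% of 18907), and against fraction 8, 12930 passed (68.4%), by edgeR's quasi-likelihood test with Benjamini-Hochberg adjustment. DIS3 was one of them. Its log2 fold change in fraction 4 was lower than that in fraction 7 by a log2 difference of -2.01 (SE 0.16, adjusted p 2.92e-13) and lower than that in fraction 8 by -1.93 (SE 0.16, adjusted p 6.23e-13). Of the 116 genes checked one by one, 113 passed for fraction 7 and 115 for fraction 8. Many of these genes were chosen for their difference in fraction 4, which is part of this test. Their counts are therefore no separate support. The genotype and the direction in which the fractions were numbered cannot be told apart in any of these values.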

How the results depend on the processing

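Genes under 1 CPM had a median of 3.30 counts in D146N and 11.7 in WT, and for many lists the sign relative to the typical gene differed from that of the share. On library totals without TMM factors 16650 genes passed in fraction 4, 714 higher and 15936 lower. Against WT fraction 8 the split was then 1089 higher and 2479 lower. DESeq2 gave 2129 lower in that comparison, and leaving out 1 library at a time gave 748 to 1492, with 826, 748 and 837 without D146N fraction 4 replicates 1, 2 and 3. Against WT fraction 7 the split of 1931 higher and 1377 lower turned to 1509 and 1788 with RLE factors and to 1542 and 1962 with DESeq2. With at least a 2-fold change required, 4788 genes passed in fraction 4, 985 of them lower. Leaving out 1 library at a time gave 8265 to 9475 genes passing. The test of fraction 4 minus fraction 3 called 0 genes under every alternative run.

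Of the 31 lists 15 had a median above 0, 2 on library totals and 8 with the small noncoding and mitochondrial rows left out, where several lists have no members left. List members passing were 497 higher and 224 lower, 141 and 639 on library totals, 329 higher with those rows left out, and 57 lower at 2-fold. On library totals the medians were: RNase P and MRP RNAs and proteins -1.73, 7SL, 7SK, Y and vault RNAs -2.49, large ribosomal subunit protein mRNAs 0.91, small ribosomal subunit protein mRNAs 0.99, translation factor and other TOP mRNAs -2.82, hosts of small nucleolar RNAs -0.20, box C/D small nucleolar RNAs -1.18, box H/ACA small nucleolar RNAs -0.19, Cajal body RNAs -1.57, spliceosomal small nuclear RNA genes -0.24, nuclear complex I to V subunit mRNAs -0.66, mitochondrial ribosomal protein mRNAs -1.60, mitochondrially encoded mRNAs -2.10, mitochondrial ribosomal and transfer RNAs -1.44, replication dependent histone mRNAs -1.48, proteasome subunit mRNAs -2.86, cytoskeletal scaffold and actin nucleator mRNAs -3.95, other very long mRNAs -3.66, anaphase promoting complex mRNAs -2.97, DNA replication factor mRNAs -3.33, G2/M regulator mRNAs -3.08, DIS3 family and RNA exosome mRNAs -2.15, exosome cofactor mRNAs -3.11, nuclear long noncoding RNAs -2.98, endoplasmic reticulum chaperone mRNAs -3.34, glycolytic enzyme mRNAs -3.46, integrated stress response mRNAs -3.14, cholesterol synthesis and uptake mRNAs -3.25, hnRNP and Sm protein mRNAs -3.06, 293T markers -3.49 and markers of other cell types -3.84. In a fit to the 6 libraries alone they were: large ribosomal subunit protein mRNAs 3.77, small ribosomal subunit protein mRNAs 3.85, translation factor and other TOP mRNAs 0.043, hosts of small nucleolar RNAs 2.70, box C/D small nucleolar RNAs 1.20, box H/ACA small nucleolar RNAs 3.05, Cajal body RNAs 0.96, spliceosomal small nuclear RNA genes 2.73, nuclear complex I to V subunit mRNAs 2.20, mitochondrial ribosomal protein mRNAs 1.25, mitochondrial ribosomal and transfer RNAs 1.18, replication dependent histone mRNAs 1.38, cytoskeletal scaffold and actin nucleator mRNAs -1.09, other very long mRNAs -0.80, G2/M regulator mRNAs -0.22, integrated stress response mRNAs -0.28, hnRNP and Sm protein mRNAs -0.20, 293T markers -0.67 and markers of other cell types -0.98. Adding the replicate block to that fit gave: large ribosomal subunit protein mRNAs 3.77, small ribosomal subunit protein mRNAs 3.85, translation factor and other TOP mRNAs 0.039, hosts of small nucleolar RNAs 2.70, box C/D small nucleolar RNAs 1.19, box H/ACA small nucleolar RNAs 3.06, Cajal body RNAs 0.96, spliceosomal small nuclear RNA genes 2.73, nuclear complex I to V subunit mRNAs 2.20, mitochondrial ribosomal protein mRNAs 1.26, mitochondrial ribosomal and transfer RNAs 1.18, replication dependent histone mRNAs 1.38, cytoskeletal scaffold and actin nucleator mRNAs -1.09, other very long mRNAs -0.80, G2/M regulator mRNAs -0.23, integrated stress response mRNAs -0.28, hnRNP and Sm protein mRNAs -0.20, 293T markers -0.66 and markers of other cell types -0.97. Without a filter on low counts they were: RNase P and MRP RNAs and proteins 0.94, large ribosomal subunit protein mRNAs 3.58, small ribosomal subunit protein mRNAs 3.66, hosts of small nucleolar RNAs 2.47, box C/D small nucleolar RNAs 1.44, box H/ACA small nucleolar RNAs 1.96, nuclear complex I to V subunit mRNAs 2.01, mitochondrial ribosomal protein mRNAs 1.07, mitochondrially encoded mRNAs 0.57, replication dependent histone mRNAs 1.17, cytoskeletal scaffold and actin nucleator mRNAs -1.28, other very long mRNAs -0.99, anaphase promoting complex mRNAs -0.30, DNA replication factor mRNAs -0.66, G2/M regulator mRNAs -0.41, exosome cofactor mRNAs -0.45, glycolytic enzyme mRNAs -0.79, integrated stress response mRNAs -0.46, hnRNP and Sm protein mRNAs -0.39 and 293T markers -0.85. With limma voom they were: box H/ACA small nucleolar RNAs 2.66, 293T markers -0.65 and markers of other cell types -0.84, and with the small RNA rows left out RNase P and MRP RNAs and proteins 0.55. Leaving out 1 library at a time, the medians ran as follows: 293T markers -1.10 to -0.70, 7SL, 7SK, Y and vault RNAs 0.030 to 0.37, Cajal body RNAs 0.81 to 1.10, DIS3 family and RNA exosome mRNAs 0.43 to 0.62, DNA replication factor mRNAs -0.71 to -0.51, G2/M regulator mRNAs -0.43 to -0.31, RNase P and MRP RNAs and proteins 0.88 to 1.07, anaphase promoting complex mRNAs -0.34 to -0.12, box C/D small nucleolar RNAs 1.503 to 1.64, box H/ACA small nucleolar RNAs 2.17 to 2.60, cholesterol synthesis and uptake mRNAs -0.63 to -0.43, cytoskeletal scaffold and actin nucleator mRNAs -1.32 to -1.15, endoplasmic reticulum chaperone mRNAs -0.72 to -0.53, exosome cofactor mRNAs -0.44 to -0.16, glycolytic enzyme mRNAs -0.84 to -0.68, hnRNP and Sm protein mRNAs -0.41 to -0.26, hosts of small nucleolar RNAs 2.45 to 2.57, integrated stress response mRNAs -0.48 to -0.32, large ribosomal subunit protein mRNAs 3.55 to 3.68, markers of other cell types -1.57 to -1.13, mitochondrial ribosomal and transfer RNAs 1.06 to 1.27, mitochondrial ribosomal protein mRNAs 1.02 to 1.23, mitochondrially encoded mRNAs 0.50 to 0.70, nuclear complex I to V subunit mRNAs 1.95 to 2.11, nuclear long noncoding RNAs -0.37 to -0.11, other very long mRNAs -1.02 to -0.89, proteasome subunit mRNAs -0.23 to -0.046, replication dependent histone mRNAs 1.16 to 1.32, small ribosomal subunit protein mRNAs 3.64 to 3.76, spliceosomal small nuclear RNA genes 2.39 to 2.59, translation factor and other TOP mRNAs -0.18 to -0.0092. The lowest value of the 7SL, 7SK, Y and vault list was without WT fraction 4 replicate 2, and without replicate 1 it was 0.086.

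Named genes below 0 on library totals and above 0 after TMM were: RPP21 -0.78, RN7SL1 -0.32, RN7SL2 -0.44, VTRNA1-1 -0.56, RACK1 -1.91, MT-CO1 -2.53, MT-CO2 -0.29, MT-CO3 -0.57, MT-ND1 -2.03, MT-ND5 -2.70, MT-CYB -2.76, H1-2 -1.09, H4C14 -2.08, GINS2 -1.66, PTTG1 -0.21, CKS1B -0.062, EXOSC1 -0.62, EXOSC8 -1.38, PVT1 -0.69, SEC61B -0.11, DDIT3 -1.05, SNORD3B-1 -1.83, SNORD3B-2 -1.21 and SNORD3C -2.69. Without a filter MT-ND5 -0.033, MT-CYB -0.084 and SNORD3C -0.024 changed sign, and leaving out 1 library at a time these ran over MT-ND5 -0.069 to 0.11, MT-CYB -0.12 to 0.022, SNORD3C -0.11 to 0.17; none of the 3 passed the test. Of 1828 pairs of 116 named genes and 16 alternatives, 1747 kept their call and 37 changed sign.

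With the 7SL, 7SK, RNase P and MRP RNA rows left out of the total, the differences in share (D146N minus WT, percentage points) were 1.52 for all other rows, -0.599 for histone mRNAs, -1.68 for mitochondrially encoded RNAs, -33.3 for other protein coding genes, 35.4 for ribosomal protein mRNAs, 8.19 for ribosomal protein pseudogene rows, 0.0270 for small nuclear RNAs other than 7SK, -9.63 for small nucleolar and Cajal body RNAs. Replicate numbers did not pair the libraries: deviations of same-numbered libraries correlated at -0.00607 to 0.0116 and those of others at -0.0253 to 0.0199. With the replicate block 9112 genes passed in fraction 4. Spliced length was not run because no transcript lengths were given here, and gene span, chosen after seeing the data, stood in for it. The cause of these changes was not tested.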
